A study of Mus musculus with 18 samples.

Results

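Places that hold H3K9me2, H3K27me3 or both in mouse heart cells without G9a were taken from 2 lists of regions, 1 for each mark. A pair is an H3K9me2 region and an H3K27me3 region on chromosomes 1 to 19 that each cover at least 50% of the other. There were 106065 pairs, made from 14.9% of the 711506 listed H3K9me2 regions and 21.1% of the 502009 listed H3K27me3 regions. All values compared are from KO libraries. These came from cardiomyocyte-enriched populations of C57BL/6J mice with the genotype G9a flox/flox; alphaMHC-MerCreMer +/-, immunoprecipitated with an antibody to H3K9me2 (2 libraries, KO_H3K9me2) or to H3K27me3 (2 libraries, KO_H3K27me3). MerCreMer is a Cre recombinase that works once tamoxifen is given, and the promoter of Myh6, the gene of alpha myosin heavy chain, confines it to heart muscle cells. Other cells of an enriched population keep an intact floxed gene. The labels give neither the age of the mice nor the tamoxifen schedule, and do not say whether the 2 libraries of a mark came from separate animals, so the p-values measure only the spread between these libraries.

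G9a, encoded by Ehmt2, methylates histone H3 at lysine 9, and H3K9me2 is its main product in chromatin that is kept silent over broad stretches. H3K27me3 is written by Polycomb repressive complex 2 at CpG-rich promoters of developmental regulators, where it keeps genes of other lineages off. Both marks are read as silent chromatin, but through different reader proteins. The Ehmt2 gene itself had no pair, and a list of histone marks does not measure its deletion. Marks at cell type genes do not measure the share of a cell type either. In a mixed population, fewer cells with a mark and less of the mark per cell cannot be told apart, and 2 marks at 1 place need not lie in the same cells.

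The authors listed a region where its signal differed between KO and Cre (mice with the transgene alone), with a -log10 p of at least 2. A pair therefore exists only where both marks had such a region, and a place that changed in neither genotype has no value. The signal was divided by the region's length in kb and by the median of its library over all listed regions, so that a scaled value of 1 is the typical listed region. The 4 medians were close, at 150 and 163 signal units per kb for KO_H3K9me2, against 140 and 148 for KO_H3K27me3. The regions were short, with a median of 0.75 kb for either mark and 0.6 kb for the shared part, and the shared parts covered 67.0 Mb. Scaled values compare a mark with its own list and are not amounts of one mark against the other.

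To show promoters at either end of the comparison, 5 are printed here as RefSeq gives them for GRCm38.p6, 250 bases before to 50 bases after the gene start, 5′ to 3′ on the gene's strand, with each CG in capitals. The first 3 lie in pairs where H3K27me3 was called higher and the last 2 in pairs where both H3K9me2 values lay above both H3K27me3 values.
Cpm (chr10:117629250-117629549): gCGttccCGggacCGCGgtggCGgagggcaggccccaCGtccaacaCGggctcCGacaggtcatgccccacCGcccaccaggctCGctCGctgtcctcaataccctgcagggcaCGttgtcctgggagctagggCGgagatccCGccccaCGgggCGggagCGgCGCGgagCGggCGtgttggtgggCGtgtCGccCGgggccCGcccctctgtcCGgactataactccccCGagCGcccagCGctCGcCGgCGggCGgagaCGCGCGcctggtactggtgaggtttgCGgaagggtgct
Apba2 (chr7:64501456-64501755): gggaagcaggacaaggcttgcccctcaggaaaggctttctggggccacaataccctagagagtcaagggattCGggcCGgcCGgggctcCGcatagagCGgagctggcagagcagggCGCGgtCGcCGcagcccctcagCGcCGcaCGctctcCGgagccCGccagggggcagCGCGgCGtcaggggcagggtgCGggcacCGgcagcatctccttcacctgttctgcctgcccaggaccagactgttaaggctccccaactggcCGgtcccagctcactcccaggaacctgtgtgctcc
Ghsr (chr3:27371101-27371400): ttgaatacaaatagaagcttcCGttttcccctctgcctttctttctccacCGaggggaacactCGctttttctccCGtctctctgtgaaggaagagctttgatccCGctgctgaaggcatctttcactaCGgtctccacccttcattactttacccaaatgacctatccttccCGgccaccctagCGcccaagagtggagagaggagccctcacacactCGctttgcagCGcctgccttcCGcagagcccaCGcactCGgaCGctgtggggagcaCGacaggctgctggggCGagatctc
Olfr209 (chr16:59362167-59362466): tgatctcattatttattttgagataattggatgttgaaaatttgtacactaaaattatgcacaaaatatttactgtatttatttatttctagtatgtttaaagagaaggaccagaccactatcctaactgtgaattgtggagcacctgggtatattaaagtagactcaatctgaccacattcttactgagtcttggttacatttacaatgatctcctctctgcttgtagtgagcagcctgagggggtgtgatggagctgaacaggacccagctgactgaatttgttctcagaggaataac
Vmn2r54 (chr7:12636085-12636384): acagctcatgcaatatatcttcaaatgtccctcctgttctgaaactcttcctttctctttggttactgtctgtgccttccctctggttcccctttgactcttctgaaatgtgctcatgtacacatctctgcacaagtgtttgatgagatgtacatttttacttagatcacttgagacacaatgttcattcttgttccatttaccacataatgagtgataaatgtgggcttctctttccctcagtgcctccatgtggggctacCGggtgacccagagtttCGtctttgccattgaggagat

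The promoter of Cpm, which encodes the membrane enzyme carboxypeptidase M, holds 37 CG in 300 bases and that of Apba2, a neuronal adaptor protein, holds 20. At the Cpm pair, KO_H3K9me2 had scaled values of 0.378 and 0.553, against 7.97 and 8.07 for KO_H3K27me3. At the Apba2 pair the values were 0.738 and 0.804 for KO_H3K9me2, against 9.90 and 8.72 for KO_H3K27me3. The promoter of Ghsr, the ghrelin receptor, holds 16 CG, with 0.740 and 0.486 for KO_H3K9me2, against 7.06 and 6.85 for KO_H3K27me3. In all 3 pairs the KO_H3K27me3 values were several times their library median while KO_H3K9me2 lay under its own. The promoter of the odorant receptor gene Olfr209 holds 0 CG and that of the pheromone receptor gene Vmn2r54 holds 2. Olfr209 had 2.81 and 2.50 for KO_H3K9me2, against 1.06 and 1.18 for KO_H3K27me3 (adjusted p = 0.179, limma with Benjamini-Hochberg adjustment). Vmn2r54 had 1.06 and 1.05 for KO_H3K9me2, against 0.473 and 0.353 for KO_H3K27me3 (adjusted p = 0.573, limma), so neither difference passed the test. Both are receptor genes with few CG, but receptor genes of these 2 families held only 3 of the 26 promoter windows with H3K9me2 higher in both libraries. They held 16 of the 107 windows with overlapping values and 2 of the 151 with H3K27me3 higher in both libraries.

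Most pairs held neither mark far above its typical level. The log2 ratio of the mean KO_H3K9me2 value to the mean KO_H3K27me3 value, with 0.1 added to each, had a median of -0.01 over all pairs and quartiles of -0.45 and 0.57. For the 4 choices of 1 library per mark the median lay between -0.03 and 0.08. The ratio was above 1 at 11203 pairs (10.6%) and under -1 at 9993 (9.42%). The pairs just inside the overlap limit (50% to 60%) numbered 38386 with a median of -0.01, and those just outside it (40% to 50%) numbered 35322 with a median of -0.03. Across pairs, log2 values of the 2 KO_H3K9me2 libraries had a Pearson correlation of 0.213 and those of the 2 KO_H3K27me3 libraries 0.277, against 0.078 to 0.145 between marks. These are descriptions over 106065 pairs of the same 4 libraries.

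Both KO_H3K9me2 values lay above both KO_H3K27me3 values at 22943 pairs (21.6%), and the reverse held at 21529 (20.3%). An exact two-sided permutation test of 2 values against 2 cannot go below 0.33, so each pair was tested with limma (a linear model that shares the spread over all pairs, with a trend on the level). At an adjusted p of 0.05, H3K9me2 was higher at 28 pairs (0.0264%) and H3K27me3 at 1231 (1.16%), 1.19% in all. At an unadjusted p of 0.05 the counts were 4473 with H3K9me2 higher and 7404 with H3K27me3 higher. The calls rest on the trend: limma without it called 0 pairs in either direction (smallest adjusted p = 0.577), with 4208 and 4904 pairs at an unadjusted p of 0.05. Without the first KO_H3K27me3 value the calls were 50 with H3K9me2 higher and 328 with H3K27me3 higher, and without the second 250 and 564. Without the first KO_H3K9me2 value they were 10 with H3K9me2 higher and 1318 with H3K27me3 higher, and without the second 11 and 1367. Quantile normalisation of the 4 libraries gave 129 with H3K9me2 higher and 516 with H3K27me3 higher, so the split between the directions depends on the scaling.

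**Figure D1:**
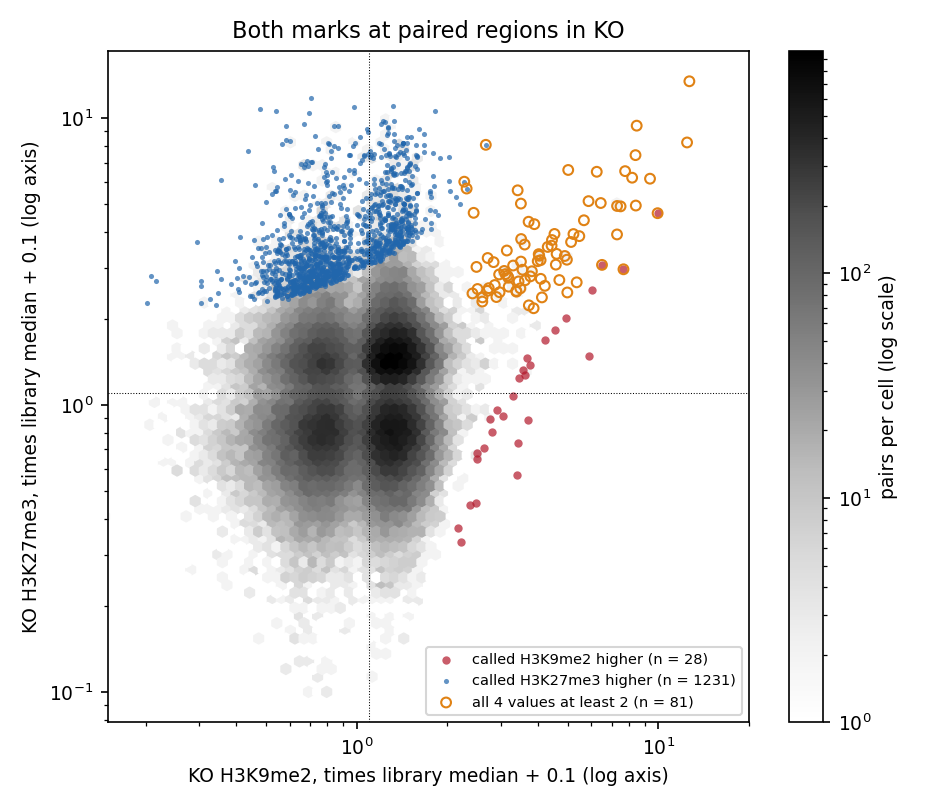
Mean scaled value of KO_H3K9me2 (x axis) against KO_H3K27me3 (y axis) at 106065 pairs, in times the library median plus 0.1, on log axes. Grey cells give the number of pairs, red points the 28 pairs called with H3K9me2 higher, blue points the 1231 called with H3K27me3 higher, and open orange circles the 81 pairs with all 4 values at 2 or more. Dotted lines mark a scaled value of 1, and the pairs fall into 4 clouds around them.

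Few places were rich in H3K9me2. All 4 values were at least 2 at 81 pairs (0.0764%), which are called rich in both marks here. H3K9me2 alone, with both of its values at least 2 and both KO_H3K27me3 values under 1, was found at 15 pairs. H3K27me3 alone, by the mirrored rule, was found at 870 (0.820%). At 13887 pairs (13.1%) all 4 values were under 1, and the other 91212 (86.0%) were mixed. Both KO_H3K9me2 values reached 2 at 253 pairs (0.239%), and both KO_H3K27me3 values at 3044 (2.87%). Over the whole lists, 720 H3K9me2 regions (0.101%) and 22992 H3K27me3 regions (4.58%) did so. The same limit is thus reached less often in the H3K9me2 list, and the counts do not compare amounts of the marks. The 81 pairs rich in both are 32.0% of these 253 and 2.66% of these 3044. Of the pairs with 1 mark alone, 6 of the 15 with H3K9me2 and 619 of the 870 with H3K27me3 were also called in that direction. The limit sets the counts: at 1.5 times the median, 603 pairs had H3K9me2 alone, 2457 H3K27me3 alone and 343 both, and at 3 times 0, 191 and 27. Without the first or the second KO_H3K9me2 value, H3K9me2 alone was found at 444 and 803 pairs. A dropped value also drops a condition of the class, so this count could not fall.

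The 4 clouds of pairs follow the direction in which each list gives the region. Where H3K9me2 was listed as higher and H3K27me3 as lower in KO than in Cre (33102 pairs), the median ratio was 0.76. Where H3K9me2 was listed as lower and H3K27me3 as higher (10656 pairs), it was -1.06. Where both were listed as higher (28401) it was -0.20, and where both were listed as lower (33906) it was -0.09. The calls followed: 24 of the 28 with H3K9me2 higher lay in the first group and 614 of the 1231 with H3K27me3 higher in the second. KO values were part of what listed a region, so these differences are not independent of the listing. Where both were listed as higher, 1 pair had H3K9me2 called higher and 351 had H3K27me3 called higher, and where both were listed as lower the counts were 3 and 199.

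**Figure D2:**
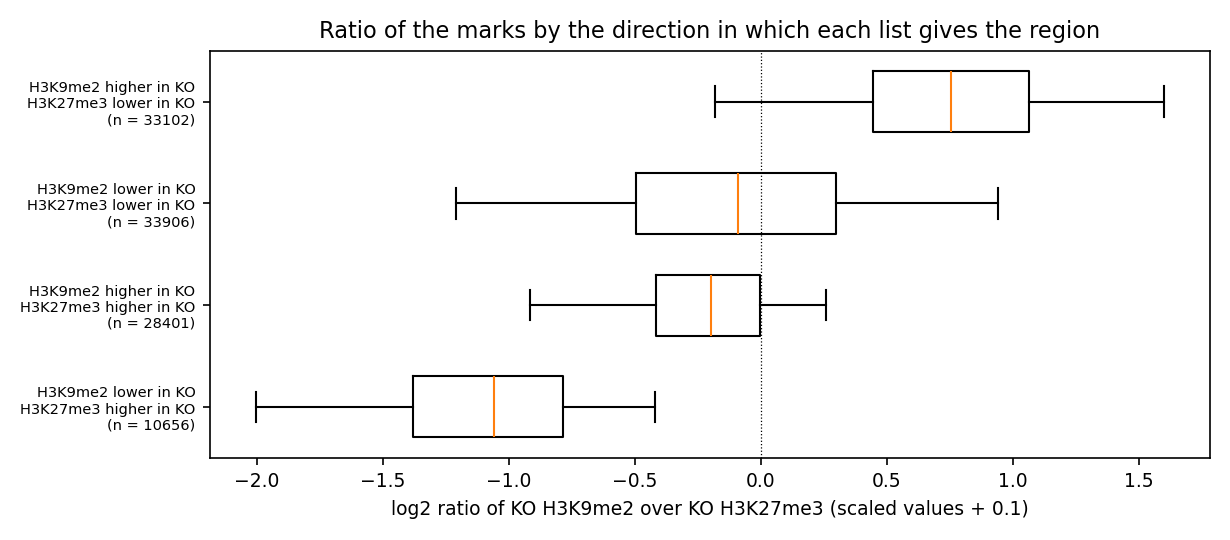
Log2 ratio of KO_H3K9me2 over KO_H3K27me3 by the direction, KO against Cre, in which the 2 lists give the region. Boxes are quartiles over pairs with the median as a line, and whiskers run from the 5th to the 95th percentile. The medians are 0.76, -0.09, -0.20 and -1.06 from top to bottom.

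Gene ends held 28.4% of the pairs with H3K27me3 called higher, against 4.72% of all pairs. Here a gene end is a place within 2 kb of either end of a protein-coding gene. Of the 28 pairs with H3K9me2 called higher, 7.14% lay at gene ends, 14.3% elsewhere in a gene and 78.6% in intergenic sequence. Of the 1231 with H3K27me3 called higher, 30.6% lay elsewhere in a gene and 40.9% in intergenic sequence, against 27.9% and 67.4% of all pairs. Seen from the position, H3K27me3 was called higher at 350 of 5009 pairs at gene ends (6.99%), 377 of 29602 in gene bodies (1.27%) and 504 of 71454 in intergenic sequence (0.705%). The median ratio was -0.25, -0.09 and 0.04 at these places. Pairs that hold a whole promoter window numbered 272, with a median ratio of -0.58. Of these, 52 (19.12%) had H3K27me3 called higher and 0 had H3K9me2 called higher by limma, with 95 and 4 at an unadjusted p of 0.05. The 54 promoter windows in the called pairs had a median GC content of 64.7% and 17.5 CG, against 53.7% and 6 CG for the 284 windows in any pair and 57.0% and 14 CG for all 20085 windows. The ratio of observed to expected CG was at least 0.6 in 59.3% of the called windows, 25.4% of those in any pair and 48.9% of all. In the 26 windows whose KO_H3K9me2 values both lay above the KO_H3K27me3 values, the median was 48.2% GC and 4 CG, and 11.5% reached 0.6. The 151 windows with the reverse order had 57.7% GC and 11 CG, and 35.8% reached 0.6. The 107 windows where the values overlapped had 49.3% GC and 3 CG, and 14.0% reached 0.6, so these were as poor in CG as the windows with H3K9me2 higher. H3K27me3 was called higher at 6 of the 130 pairs whose shared part was over 2000 bases (4.62%), against 0.550% of those up to 500 bases. For H3K9me2 called higher these shares were 0.769% (1 pair) and 0.00708% (3 pairs). The part of length in the other differences was not tested.

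The genes with H3K27me3 furthest above H3K9me2 were of several kinds. Barhl1, a homeobox factor of the developing nervous system, had 0.507 and 0.50 for KO_H3K9me2, against 8.304 and 8.196 for KO_H3K27me3 (chr2:28915101-28915650; log2 difference -3.79 ± 0.35 SE, adjusted p = 4.4e-09, limma). Nkx6-1, a homeobox factor of motor neurons and pancreatic beta cells, had 0.891 and 0.877 for KO_H3K9me2, against 11.03 and 10.67 for KO_H3K27me3 (log2 difference -3.48 ± 0.30 SE, adjusted p = 1.3e-09, limma). The homeobox genes Hmx2, Otx1 and Evx1 were called the same way. So were genes of other kinds: Kcnh3, a potassium channel of the brain, Doc2b, a calcium sensor of vesicle release, and Hs3st4, an enzyme that modifies heparan sulfate. In these 9 genes, Cpm included, KO_H3K9me2 lay between 0.080 and 0.891, and KO_H3K27me3 between 5.44 and 11.3. Hmx2 had the lowest single value, with 0.080 and 0.803 for KO_H3K9me2, against 11.3 and 9.63 for KO_H3K27me3, and it lay in the run with the most called pairs. That run held 4 pairs at Hmx2 and Bub3, with no more than 10 kb between neighbours (chr7:131550701-131558500). Most called pairs stood singly, and 13.7% lay in such runs.

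The genes with H3K9me2 furthest above H3K27me3 were less separated. Zfp985, a zinc finger gene, had 2.89 and 3.03 for KO_H3K9me2, against 0.731 and 0.899 for KO_H3K27me3 (chr4:147573301-147574850; log2 difference 1.75 ± 0.41 SE, adjusted p = 0.0168, limma). Gm8126 had 3.596 and 3.44 for KO_H3K9me2, against 1.02 and 1.33 for KO_H3K27me3 (chr14:43261801-43263500; log2 difference 1.52 ± 0.36, adjusted p = 0.0174, limma). Gm42346 and 1700001F09Rik also passed. These 4 calls are not firm: without the first KO_H3K9me2 value the adjusted p (limma) was 0.211 for Zfp985, 0.188 for Gm8126, 0.237 for Gm42346 and 0.523 for 1700001F09Rik, and all 4 also missed the threshold without the second KO_H3K9me2 or the first KO_H3K27me3 value. Hjurp, the chaperone of the centromeric histone CENP-A, had 2.73 and 2.17 for KO_H3K9me2, against 0.513 and 0.909 for KO_H3K27me3, and did not pass (adjusted p = 0.0675, limma). Pramel41, Zfp981, Olfr209 and the chitinase-like genes Chil3 and Chil4 did not pass either (adjusted p between 0.0587 and 0.229, limma). Of the 28 called pairs, 22 were intergenic. Over the 28, KO_H3K9me2 had medians of 3.25 and 3.21, against 0.937 and 1.03 for KO_H3K27me3. They lay in 18 windows of 1 Mb on 11 chromosomes, 12 of them with 1 pair. The 3 windows with the most pairs held 10 of the 28: 4 in 1 Mb of chromosome 14 that holds Gm8126 and 1700001F09Rik, 3 in 1 Mb of chromosome 1 near Gm38510 and 3 in 1 Mb of chromosome 13.

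**Figure D3:**
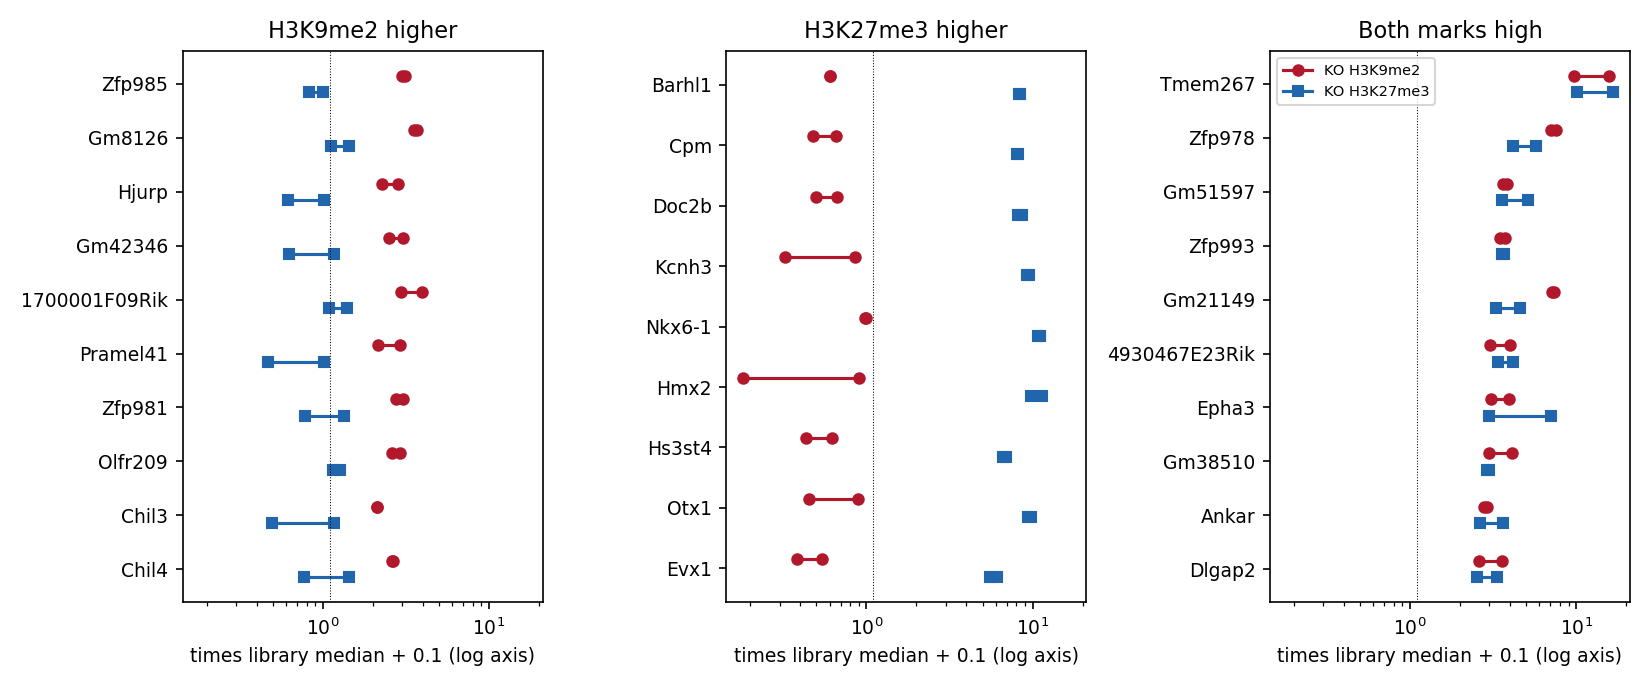
Scaled values of each library, in times the library median plus 0.1 on a log axis, at the 10 genes of largest separation with H3K9me2 higher (left), 9 of those with H3K27me3 higher (middle) and at the 10 genes richest in both marks (right). Red circles are the 2 KO_H3K9me2 libraries, blue squares the 2 KO_H3K27me3 libraries, and the dotted line is a scaled value of 1. The gap between marks is widest in the middle panel, where KO_H3K9me2 is at most 0.891 and KO_H3K27me3 at least 5.44.

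Where a G9a or Mef2c region was listed, most pairs rich in both marks had high KO signal of that target too. The 81 lay in 39 windows of 1 Mb on 16 chromosomes, 25 of them with 1 pair, and the 3 fullest windows held 27 of the 81. Of these, 10 lay at 6 to 7 Mb of chromosome 14, 9 at 15 to 16 Mb of chromosome 5 and 8 at 147 to 148 Mb of chromosome 4, where the zinc finger gene Zfp978 lies. The first megabase that holds pairs (3 to 4 Mb, next to the centromere) held 9 of the 81 (11.1%), on 6 chromosomes, against 843 of all pairs (0.795%). Tmem267, a transmembrane protein gene, ranked first by its lowest value, with 9.57 and 15.6 for KO_H3K9me2, against 10.03 and 16.65 for KO_H3K27me3. Zfp978 had 6.92 and 7.47 for KO_H3K9me2, against 4.08 and 5.60 for KO_H3K27me3. Epha3, an ephrin receptor gene, had 2.96 and 3.85 for KO_H3K9me2, against 2.91 and 6.96 for KO_H3K27me3. Dlgap2, a synaptic scaffold gene, had 3.47 and 2.49 for KO_H3K9me2, against 3.23 and 2.44 for KO_H3K27me3. The values of the marks overlapped at Tmem267, Epha3 and Dlgap2 and not at Zfp978. Zfp993, Gm21149, Gm51597, 4930467E23Rik, Gm38510 and Ankar complete the 10 genes, and none of the 10 passed the test of a difference (adjusted p between 0.0940 and 0.996, limma). Other pairs of the 81 did pass (adjusted p between 0.00151 and 0.0329, limma). H3K9me2 was called higher at chr1:85147501-85148700, chr8:83756851-83757450 and chr17:13590051-13590800. H3K27me3 was called higher at Slc22a29, chr2:73012451-73013100 and chr3:62158901-62159850. A listed G9a region overlapped 37 of the 81 (45.7%), against 29.0% of all pairs. Its KO signal was at least 2 in both G9a libraries at 28 of these 37, against 566 of 30733 (1.84%). A listed region of Mef2c, a transcription factor of muscle, overlapped 43 of the 81 (53.1%), against 25.4% of all pairs. Its KO signal was at least 2 in both Mef2c libraries at 31 of these 43, against 322 of 26937 (1.20%). Pairs without such a region have no value of that target. Of the 81, 76.5% lay in intergenic sequence, against 67.4% of all pairs, and membership in gene clusters was not scored. In clusters of similar copies, reads can match several copies, and how such reads were handled was not stated in the labels. The KO input library was not used here, and the part of copy number or of background signal in these values was not tested.

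At pairs with H3K27me3 called higher, the median G9a and Mef2c signal was closer to that at all pairs. A G9a region overlapped 36.1% of the 1231, with KO medians of 1.31 and 0.849, against 1.03 and 0.961 over all pairs with such a region. For Mef2c the share was 28.4%, with medians of 1.16 and 0.995, against 1.05 and 0.992. KO signal of at least 2 in both libraries was found at 17 of 445 pairs for G9a (3.82%, against 1.84% of all pairs with such a region) and 8 of 350 for Mef2c (2.29%, against 1.20%). Of the 28 pairs with H3K9me2 called higher, 8 had a G9a region (28.6%, against 29.0% of all pairs). A Mef2c region lay at 10 (35.7%, against 25.4%). KO medians at these few pairs were 2.33 and 2.71 for G9a, and 2.18 and 2.23 for Mef2c. KO signal of at least 2 in both libraries was found at 3 of the 8 and 5 of the 10.

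**Figure D4:**
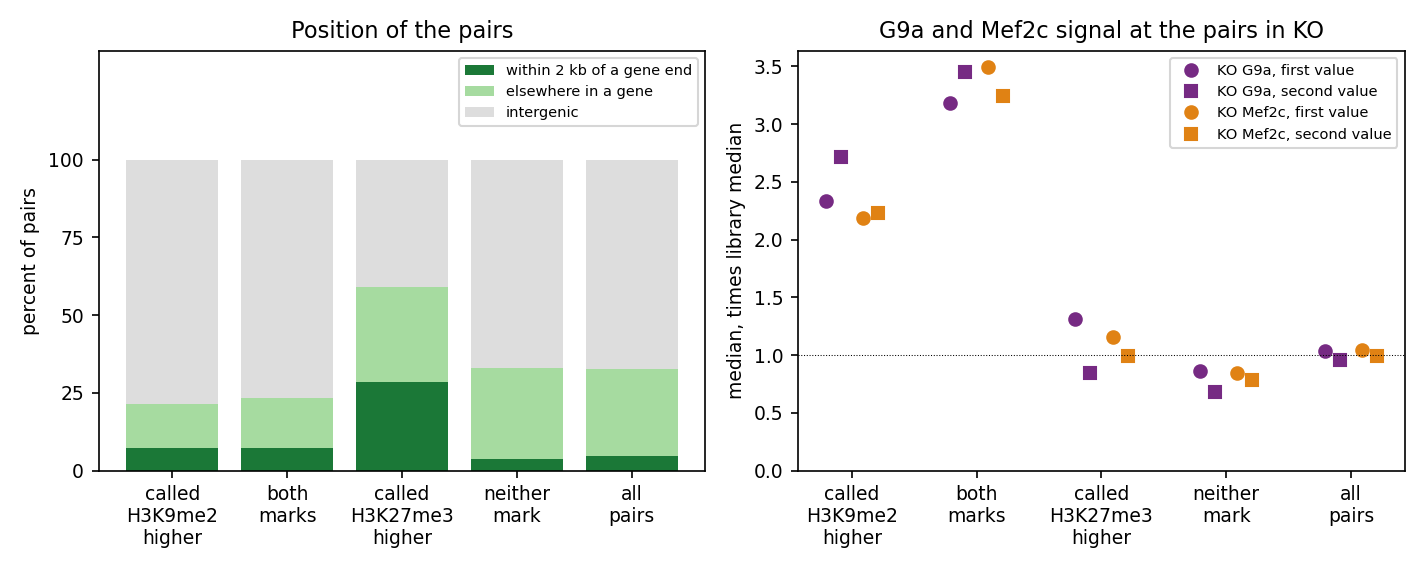
Left, percent of pairs by position for the sets named on the x axis, as stacked bars. Right, median scaled KO signal of G9a (purple) and Mef2c (orange) at pairs that overlap a listed region of that target, 1 symbol per library, with the dotted line at 1. Gene ends hold 28.4% of the pairs with H3K27me3 called higher and 4.72% of all pairs, and the G9a and Mef2c medians of the pairs rich in both marks are above 3.

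Gene lists divided between the marks. Near protein-coding genes (34611 pairs at 7953 genes) the median ratio was -0.11, with H3K27me3 called higher at 727 pairs (2.10%) and H3K9me2 at 6. Of these genes, 638 (8.02%) had a pair with H3K27me3 called higher. Hox genes, which set position along the body axis, had 7 pairs at 8 of 39 genes, with a median of -2.38, and all 7 were called with H3K27me3 higher. Hoxb1 had 1.03 and 0.672 for KO_H3K9me2, against 8.61 and 6.08 for KO_H3K27me3, and Hoxc9 1.02 and 1.65 for KO_H3K9me2, against 6.91 and 7.80 for KO_H3K27me3. Hoxa3 and Hoxa4 share a pair. Of 48 developmental transcription factors, 19 had a pair (37 pairs, median -1.09). Of these genes, 9 were called with H3K27me3 higher (Barhl1, Dlx5, Emx2, En1, Evx1, Lhx3, Neurog2, Nkx6-1 and Six6). Neurog2, which starts neuron formation, had 1.67 and 1.78 for KO_H3K9me2, against 10.7 and 10.2 for KO_H3K27me3, so H3K9me2 was above its median there too. Keratins, structural proteins of epithelia, had 48 pairs with a median of -0.98, of which 7 were called with H3K27me3 higher. These lay at Krt5, Krt42, Krt73, Krt79 and a pair shared by Krt75 and Krt90. A run of 3 called pairs at Krt73 spanned only 5.65 kb, so the 7 are not 7 separate places. Without the first KO_H3K27me3 value the calls at Krt42, Krt79 and the most separated Krt73 pair were lost (log2 differences -3.34, -1.74 and -2.09). The calls at Krt42 and that Krt73 pair were also lost without the second KO_H3K27me3 value (-3.49 and -2.17).

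Among lists of heart cell types, endothelial genes had 6 of 59 pairs (10.2%) called with H3K27me3 higher, against 2.10% near all protein-coding genes. Sox17, a transcription factor of arterial endothelium, had 0.697 and 0.662 for KO_H3K9me2, against 5.90 and 7.45 for KO_H3K27me3 (log2 difference -3.11 ± 0.35 SE, adjusted p = 1.6e-07, limma). Sox18, its close relative, had 0.619 and 0.667 for KO_H3K9me2, against 10.02 and 5.43 for KO_H3K27me3, with a second called pair. The ETS factors Fli1 and Erg and the receptor Tie1 each had 1 called pair. Fibroblast and matrix genes had 2 of 50 pairs called with H3K27me3 higher, both at Ltbp2, a protein of matrix microfibrils. This and the counts of 0 that follow are near what the share of 2.10% gives in lists of this size. Smooth muscle and pericyte genes had 0 of 36 called by limma, with a median ratio of -0.63. At an unadjusted p of 0.05 (limma), H3K27me3 was higher at 9 of these 36, against 7404 of all 106065 pairs. Both KO_H3K27me3 values lay above both KO_H3K9me2 values at 18 of the 36, and the reverse held at 3. Near all protein-coding genes these shares were 24.8% and 18.1%, so this list leaned to H3K27me3 without a call. Immune genes had 0 of 42 called, with a median of -0.08 and 2 pairs with H3K27me3 higher at an unadjusted p of 0.05. Of the cardiac transcription factors, 5 of 19 had a pair, and Hand1, a factor of ventricular development, was called. It had 0.841 and 1.59 for KO_H3K9me2, against 3.38 and 3.77 for KO_H3K27me3 (log2 difference -1.54 ± 0.37 SE, adjusted p = 0.0197, limma). The Hand1 call was lost without the first (0.124) or second (0.118) KO_H3K27me3 value or the first KO_H3K9me2 value (0.181), and that of Erg without the first (0.259) or second (0.0860) KO_H3K27me3 value, each an adjusted p from limma.

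Genes that work in heart muscle varied in how often they had a pair. A pair lay at 38.5% of all 20665 protein-coding genes. Pairs were found at 3 of 22 sarcomere genes (7 pairs, median -0.06), 7 of 19 calcium handling genes (13 pairs, -0.41), 3 of 22 genes that burn fatty acids or serve mitochondria (11 pairs, -0.52) and 12 of 22 ion channel and junction genes (26 pairs, -0.15). Fetal and hypertrophy genes had 4 pairs at 3 of 18 genes (0.20) and antihypertrophic genes 15 pairs at 5 of 21 (0.11). No pair of these 6 lists was called by limma, and at an unadjusted p of 0.05 H3K9me2 was higher at 2 and H3K27me3 at 4 of their 76 pairs. Myl7, the atrial myosin light chain, came nearest among the fetal genes, with 1.12 and 1.02 for KO_H3K9me2, against 2.84 and 2.83 for KO_H3K27me3 (adjusted p = 0.0891, limma). No pair lay at the 18 housekeeping genes. Polycomb machinery had 8 pairs and H3K9 methylation machinery 1, at Kdm4d, with no call.

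Most large clustered families and the long neuronal genes had medians above 0. Vomeronasal receptors, which sense pheromones, had 199 pairs with a median of 0.27. Both KO_H3K9me2 values lay above both KO_H3K27me3 values at 66 of them (33.2%) and below at 21 (10.6%), against 21.6% and 20.3% of all pairs and 18.1% and 24.8% of pairs near protein-coding genes. Olfactory receptors had 361 pairs (median 0.12, 24.4% above and 15.8% below), clustered protocadherins 46 (0.22) and defensins 30 (0.05). The 20 neuronal genes held 1208 pairs (0.14, 26.6% above and 13.8% below). H3K27me3 was called higher at 11 of the neuronal pairs (0.911%), in Cntnap2, Grin2b, Grm7, Kcnma1 and Rbfox1. That share was 2.10% near all protein-coding genes, gene ends included, and 1.27% in gene bodies. Of the 1208 neuronal pairs, 1202 lay in the gene span, so the share of gene bodies is the closer comparison. No vomeronasal pair was called (17 with H3K9me2 higher and 4 with H3K27me3 higher at an unadjusted p of 0.05, limma), and 4 of the olfactory pairs were (1.11%), all with H3K27me3 higher. Of these, Olfr1414, Olfr156 and Olfr63 lost the call without the first or the second KO_H3K27me3 value (adjusted p between 0.0612 and 0.177, limma). Cytochrome P450 genes had 199 pairs (0.12), of which 9 had H3K27me3 called higher (4.52%, against 2.10% near all protein-coding genes). Among them Cyp1b1, which oxidises steroids and foreign compounds, had 0.516 and 0.476 for KO_H3K9me2, against 5.11 and 3.95 for KO_H3K27me3. Zfp zinc finger genes had 275 pairs (-0.01), with H3K9me2 called higher at Zfp985. H3K27me3 was called higher at 5 of the Zfp pairs (1.82%), close to the 2.10% of pairs near all protein-coding genes. The Zfp genes held 4 of the 19 pairs rich in both marks among the 34611 pairs near protein-coding genes. All 4 lay at Zfp978 and Zfp993 on chromosome 4, out of 94 Zfp genes with a pair, so they do not describe the family. Imprinted genes had 36 pairs (0.22), with H3K27me3 called higher at 2 of them (5.56%), in Gnas and Magel2. Without the first KO_H3K27me3 value the calls at Cntnap2, Kcnma1, Gnas and Magel2 were lost (adjusted p between 0.0563 and 0.269, limma). At -log10 p of at least 10 in both lists, olfactory receptors and cytochrome P450 genes lay below the median of all pairs (by 0.19 and 0.14 on the log2 scale).

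**Figure D5:**
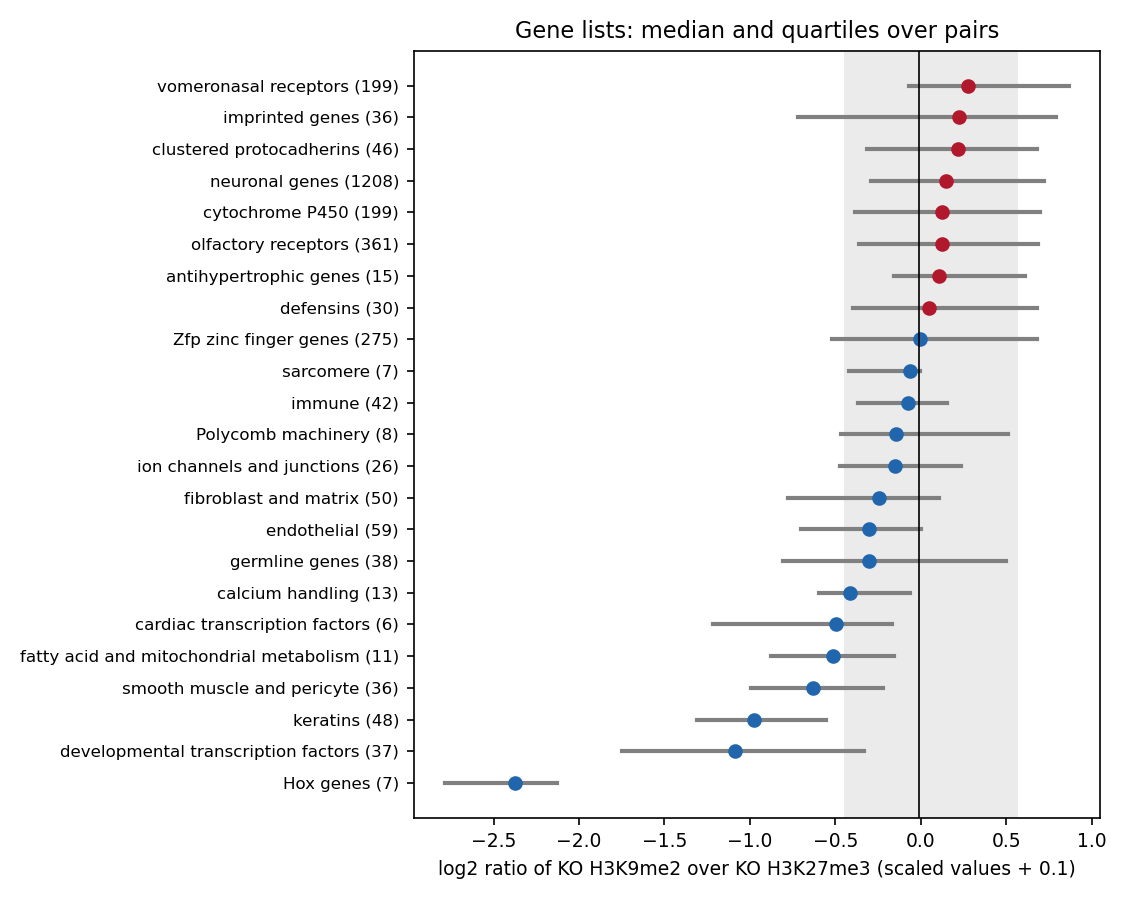
Median log2 ratio of KO_H3K9me2 over KO_H3K27me3 for the pairs within 2 kb of the genes of each list with at least 5 pairs, with quartiles as bars and the number of pairs in brackets. The black line and grey band are the median (-0.01) and quartiles (-0.45 and 0.57) of all pairs, and the Hox list (-2.38) lies furthest from them.

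Along the chromosomes, 2227 windows of 1 Mb held at least 20 pairs. The lowest median ratio was -1.23, at 118 to 119 Mb of chromosome 11, with 7 of 23 pairs called with H3K27me3 higher. The window at 113 to 114 Mb of chromosome 5 had a median of -1.17 and the most such calls, 14 of 37, and its neighbour at 112 to 113 Mb a median of -1.10. The window of the Hoxb genes, at 96 to 97 Mb of chromosome 11, had -1.06. The highest medians were 1.03 at 62 to 63 Mb of chromosome 12, 0.92 at 40 to 41 Mb of chromosome 2, which holds Lrp1b, and 0.89 at 29 to 30 Mb of chromosome 1. None of these 3 windows held a called pair. A called pair with H3K27me3 higher lay in 626 windows and one with H3K9me2 higher in 17. By chromosome, H3K27me3 was called higher at 0.608% of pairs on chromosome 1 to 1.74% on chromosome 11.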

How the data were processed

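ChIP-seq values of H3K9me2 and H3K27me3 in cardiomyocyte-enriched populations were read from the region lists that the authors deposited for each target. A region's deposited cell holds 4 whole-number signal values (2 Cre, then 2 KO) and a -log10 p for the authors' comparison of the genotypes. The order was taken from the list names and labels. The submitters' processing notes name BWA 0.7.10-r789, SAMtools 1.1 and the build mm10 (GRCm38). The program that found the regions, the signal's scale and normalization and the role of the input were not stated. The signal was therefore not treated as counts, and with the depth unknown no depth-based interval was computed. The series text names H3K27me2 once where its title and labels name H3K27me3, which was used. The H3K9me2 antibody was Abcam ab1220 and the H3K27me3 antibody came from Millipore, per the labels.

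Regions on chromosomes 1 to 19 were paired with bedtools 2.31.1 (reciprocal overlap of 0.5 or more). Each region was kept once, with its largest overlap, which left 106065 of 106175 overlaps. Values per kb were divided by the library median over all listed regions. Log2 values with a pseudocount of 0.1 were fitted over all pairs with limma 3.58.1, run in R 4.3.3 (moderated by empirical Bayes, with trend, KO_H3K9me2 minus KO_H3K27me3, 2 libraries each, Benjamini-Hochberg adjustment). A run on simulated data with a constant spread checked only that set log2 differences are recovered. It cannot check the trend on which the calls rest. A log2 difference is the difference of mean log2 values, while a log2 ratio compares mean values. Regions were listed because genotypes differ and the scaling sets each mark against its own list, so p-values are not error rates and calls rank pairs against library spread.

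Protein-coding gene spans (RefSeq, GRCm38.p6) with 2 kb either side gave gene names, and no genome was used. Named are the 10 genes of largest separation in each direction with values of at least 50 and scaled values of at least 2 in the higher mark, the 10 genes with the highest lowest value, and up to 3 pairs of each list, of which 1 gene with H3K27me3 higher is not reported here. Windows, pairs, genes or features outside this rule were chosen after their values were seen. The members and gene lists were chosen with earlier results of these data known. Alternatives covered scaling, length, pseudocount, overlap, the authors' threshold, low values, single libraries, the trend and the limits of the classes, and 2 more were added after seeing the data (pairs listed in the same direction, and quantile normalisation).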

Additional observations from a re-analysis of the deposited data

How the results depend on the processing

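No paired analysis was possible because the deposited values carry no replicate numbers. Of 39 named pairs that were called, all 39 lost the call under limma without the trend (adjusted p = 0.577), which called 0 pairs in either direction, and none of the other alternatives reversed one. Without the first or second KO_H3K27me3 value 20 and 13 of the 39 lost it, without either KO_H3K9me2 value 6, and after quantile normalisation 11. Values below are H3K9me2 first. Non-overlap and the classes set a condition on each value, so leaving out 1 library could not lower those counts. Leaving out 1 library gave 10 to 250 pairs called with H3K9me2 higher and 328 to 1367 with H3K27me3 higher, 35441 to 41850 and 34254 to 39547 non-overlapping pairs, 34 to 803 and 1393 to 2466 pairs with 1 mark alone, 105 to 128 with both, 19045 to 21510 with neither, and a median ratio of -0.034 to 0.073. Of the 1231 pairs called with H3K27me3 higher, 324 were called again without the first and 531 without the second KO_H3K27me3 value.

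Called pairs numbered 82 and 6091 with any overlap, 5 and 230 with an overlap of 75%, 3 and 38 where both lists have a -log10 p of 10 or more (the stricter threshold), 9 and 561 for pairs listed in the same direction, 2556 and 2361 without division by length, and 129 and 516 after quantile normalisation. A pseudocount of 0.5 gave 47 with H3K9me2 higher. Non-overlapping pairs numbered 51589 and 59894 with any overlap, 5907 and 5219 at 75% overlap, 2296 and 1133 at the stricter threshold, and 4052 and 12621 in the same direction. Without division by length, 35966 had H3K9me2 higher.

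Pairs with H3K9me2 alone, H3K27me3 alone, both and neither numbered 47, 3574, 167 and 27759 with any overlap, 3, 158, 30 and 4096 at 75% overlap, and 2, 31, 28 and 1618 at the stricter threshold. The first 3 classes numbered 3, 202 and 50 in the same direction, 603, 2457 and 343 at a limit of 1.5, and 0, 191 and 27 at a limit of 3. H3K9me2 alone was found at 27 pairs without library scaling, 55 after quantile normalisation and 1776 without division by length, which gave 2284 rich in both. The median ratio was -0.092 with library medians over the pairs, 0.0929 without library scaling, 0.26 without division by length, 0.0931 at the stricter threshold and -0.16 in the same direction. The counts under a changed overlap or threshold rest on other numbers of pairs.

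Relative to all pairs, the Zfp list turned to -0.029 without the first KO_H3K27me3 value (up to 0.067 without another value) and to -0.070 at 75% overlap, and at the stricter threshold the olfactory list turned to -0.19 and the P450 list to -0.14. Signs of uncalled log2 differences near 0 also turned. Without division by length they were 0.34 (4930467E23Rik), 0.063 (Gm51597), 0.23 (Cacna1g) and -0.57 (Dlgap2). After quantile normalisation they were 0.78 (4930467E23Rik), 0.68 (Ankar), 0.49 (Epha3), 0.71 (Gm51597), 0.12 (Tmem267) and 0.86 (Zfp993). Without library scaling they were 0.033 (Tmem267) and 0.10 (Zfp993), and with library medians over the pairs -0.020 (Dlgap2). With 1 library left out they ran from -0.31 to 0.077 (4930467E23Rik), -0.36 to 0.10 (Ankar), -0.17 to 0.30 (Dlgap2), -1.02 to 0.21 (Epha3), -0.46 to 0.048 (Gm51597), -0.45 to 0.28 (Tmem267) and -0.057 to 0.040 (Zfp993). The causes were not tested. The replicate block could not be fitted. With 2 libraries per mark and a median standard error of 0.62 on the log2 scale, small differences were not detectable, and the unknown depth limits every value.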
